A study of Mus musculus with 12 samples.

Results

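Open chromatin was compared between iNKT1 and iNKT2 cells, subsets of invariant natural killer T (iNKT) cells, from the thymus of untreated wild-type C57BL/6 mice aged 8 to 9 weeks. The subsets were taken by their labels, as the 2 iNKT1 and 2 iNKT2 libraries of that genotype, which are 4 of the 12 samples of the series. The series also holds iNKT17 cells of these mice and the same 3 subsets of Hivep3-/- mice, with 2 libraries each. iNKT1 cells were gated as CD122+ ICOS- and iNKT2 cells as CD122- ICOS+ Izumo1r+ CD138-, with 5000 to 20000 cells per subset from pooled thymi. Subsets were combined into 50000 to 100000 cells for a single treatment with Tn5, a transposase that inserts into accessible DNA, and were separated afterwards by a sort on ICOS and CD138 alone. Titles number the mice while the protocol speaks of pooled thymi, so the spread between libraries may be technical. The p-values and standard errors (SE) rest on that spread, pooled over all 12 libraries and in part across regions, not on the compared libraries alone.

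iNKT cells are T cells with a semi-invariant receptor for lipids presented by CD1d, and they mature in the thymus into effector subsets that resemble helper T cells. iNKT1 cells depend on the T-box factor T-bet (encoded by Tbx21) and make interferon gamma. iNKT2 cells hold much PLZF (encoded by Zbtb16) and GATA3 and make IL-4.

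Accessibility is given as the deposited log2 level of transposase insertions per kilobase in regions of 500 bp. Of 63309 regions, 58322 had a mean of at least 5 on the linear scale in either subset and were tested. A region was called when it differed at least 3-fold with a Benjamini-Hochberg adjusted p under 0.1 in limma. In all, 4273 regions (7.33% of those tested) were higher in iNKT1 cells and 5082 (8.71%) were higher in iNKT2 cells, together 9355 or 16.0%. In each called region both libraries of the higher subset lay above both libraries of the other. The call was made on these same libraries, so this separation was nearly fixed by it. A region closed in 1 subset was tested only through the subset where it was open, so such a region had to differ. In these bulk samples a larger share of cells with an open region and more insertions per cell cannot be told apart.

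Sequences of 4 regions are shown because each had the largest called difference in the locus of a gene that marks a subset, as the central 200 bases on the plus strand of GRCm38.p6 (mm10). Capitals mark matches, on either strand, to any of 12 motifs whose letters are given with the motif counts. The Tbx21, Gata3 and Ifng regions were higher in iNKT1, and the Zbtb16 region was higher in iNKT2.
Tbx21 chr11:97109727-97109926: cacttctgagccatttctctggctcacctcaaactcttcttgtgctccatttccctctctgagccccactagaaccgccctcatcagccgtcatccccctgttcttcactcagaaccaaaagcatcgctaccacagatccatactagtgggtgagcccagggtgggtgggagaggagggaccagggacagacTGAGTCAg
Ifng chr10:118435598-118435797: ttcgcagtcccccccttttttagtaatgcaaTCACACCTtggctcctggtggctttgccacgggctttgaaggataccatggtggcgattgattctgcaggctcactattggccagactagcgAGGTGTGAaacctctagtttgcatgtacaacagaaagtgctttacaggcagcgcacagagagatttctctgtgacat
Gata3 chr2:9862424-9862623: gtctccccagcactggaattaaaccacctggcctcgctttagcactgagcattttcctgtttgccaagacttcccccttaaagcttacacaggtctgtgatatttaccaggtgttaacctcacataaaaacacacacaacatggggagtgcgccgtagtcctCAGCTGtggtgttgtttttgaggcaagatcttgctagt
Zbtb16 chr9:48681146-48681345: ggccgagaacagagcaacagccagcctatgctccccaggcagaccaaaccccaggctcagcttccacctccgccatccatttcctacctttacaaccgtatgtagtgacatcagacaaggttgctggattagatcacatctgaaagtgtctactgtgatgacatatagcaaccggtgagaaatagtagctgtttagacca
The Ifng window held 2 matches to the T-box letters, the Tbx21 window 1 match to the bZIP letters and the Gata3 window 1 match to the E-box letters. The Zbtb16 window held 0 matches, which says only that these letters are not in it.

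Across the tested regions the difference was centred near 0, with a median of 0.01 (log2, iNKT1 minus iNKT2). The median linear level of regions higher in iNKT1 was 13.9 in iNKT1 and 2.56 in iNKT2. For regions higher in iNKT2 it was 14.1 in iNKT2 and 2.71 in iNKT1. The threshold of 5 and the 3-fold rule in part fixed these levels. Very large differences were more numerous on the iNKT1 side, where 566 regions reached 16-fold, against 206 regions on the iNKT2 side. The libraries do not resolve low levels equally. Up to its median level an iNKT1 library took 139 or 170 distinct values and an iNKT2 library 219 or 159, and the lowest value was -3.12 and -3.79 in the iNKT1 libraries and -4.31 in both iNKT2 libraries. The part of these lower bounds in the numbers of very large differences was not tested. With a pseudocount of 5 on the linear scale, which damps low levels, regions called at 3-fold were 1183 higher in iNKT1 and 1287 higher in iNKT2. Without it they were 4273 and 5082.

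**Figure D1:**
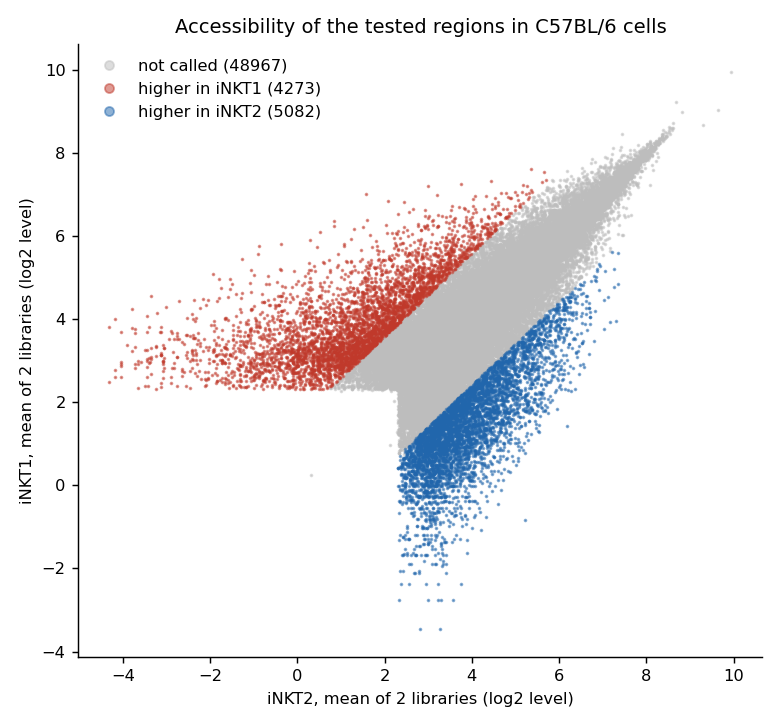
Mean log2 level of 2 iNKT2 libraries (horizontal) and 2 iNKT1 libraries (vertical) for each of the 58322 tested regions, with the 4273 regions called higher in iNKT1 in red and the 5082 called higher in iNKT2 in blue. The straight inner edges come from the threshold of 5 in either subset and from the 3-fold threshold.

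Regions that differed between the subsets were mostly away from promoters. Promoters, taken as within 1000 bp of a transcription start site, made up 11.5% of regions higher in iNKT1 and 13.0% of those higher in iNKT2, beside 37.5% of all tested regions. Introns held 49.9% and 49.5% of the called regions beside 35.1% of all tested, and stretches between genes 34.0% and 32.1% beside 23.1%. The median distance to the nearest protein-coding start was 18.4 kb for regions higher in iNKT1 and 20.6 kb for those higher in iNKT2, against 6.94 kb over all tested regions.

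The factor genes that mark the subsets are described first, each with its locus, meaning the annotated gene extended by 10 kb at both ends. At Tbx21, 8 of 12 tested regions were higher in iNKT1, beside 7.33% of all tested regions, and 0 in iNKT2. At an unadjusted p under 0.05 in limma all 12 were higher in iNKT1, where of all tested regions 26.9% were higher in iNKT1 and 27.5% in iNKT2. An intronic region at chr11:97109577-97110076, 5.50 kb inside the gene, read 4.28 and 4.40 in iNKT1 and -0.72 and -0.55 in iNKT2. The iNKT1 libraries lay far above both iNKT2 libraries, with a difference of 4.97 ± 0.48 (SE, n = 2 and 2, limma adjusted p = 2.76e-06). A region between genes, about 2.99 kb upstream at chr11:97118068-97118567, read 4.41 and 4.68 in iNKT1 and -0.04 and -0.67 in iNKT2, a difference of 4.90 ± 0.62 (SE, n = 2 and 2, limma adjusted p = 2.56e-05). The promoter at chr11:97115095-97115594 was open in both subsets, at 5.15 and 5.20 in iNKT1 and 4.63 and 4.53 in iNKT2, and its difference of 0.60 ± 0.18 (SE, n = 2 and 2, limma adjusted p = 0.0159) did not reach 3-fold.

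At Zbtb16, 24 of 85 tested regions were higher in iNKT2, beside 8.71% of all tested regions, and 0 in iNKT1. At an unadjusted p under 0.05 in limma 66 were higher in iNKT2, beside 27.5% of all tested regions, and 3 in iNKT1. The called regions lay from 15.5 to 189 kb downstream of the gene's start, in its introns, in an exon and past its end, with differences from -3.21 to -1.64. The intronic region whose sequence is printed, at chr9:48680996-48681495, read 1.77 and 1.44 in iNKT1 and 4.93 and 4.70 in iNKT2, a difference of -3.21 ± 0.23 (SE, n = 2 and 2, limma adjusted p = 2.95e-07). The region past the gene's end at chr9:48648754-48649253 was open in both subsets and higher in iNKT2, at 3.66 and 3.56 in iNKT1 and 6.21 and 6.09 in iNKT2, a difference of -2.54 ± 0.20 (SE, n = 2 and 2, limma adjusted p = 5.22e-07). The promoter at chr9:48836004-48836503 read 6.57 and 6.42 in iNKT1 and 6.97 and 6.91 in iNKT2, a difference of -0.45 ± 0.10 (SE, n = 2 and 2, limma adjusted p = 0.00243) that did not reach 3-fold. The Zbtb16 promoter was open in all 4 libraries. PLZF directs the innate-like program of iNKT cells as a whole. With a pseudocount of 5, 18 of the 24 regions fell short of the call, and the printed region and the one past the gene's end kept it. Calls were lost without 1 library for 4 of the 24 regions, at chr9:48705036-48705535 and chr9:48759140-48759639 without iNKT1 replicate 1 (differences of -1.52 and -1.53), at chr9:48720987-48721486 without iNKT1 replicate 2 (-1.42) and at chr9:48674283-48674782 without iNKT2 replicate 2 (-1.35).

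The Gata3 locus, though used as an iNKT2 marker, had no called region higher in iNKT2, and its calls were too few to set it apart. Of 14 tested regions, 2 were higher in iNKT1, beside 7.33% of all tested regions, and 0 in iNKT2, and at an unadjusted p under 0.05 in limma 5 were higher in iNKT1 and 1 in iNKT2, beside 26.9% and 27.5% of all tested regions. The intronic region at chr2:9862274-9862773 read 4.35 and 4.15 in iNKT1 and 2.44 and 1.60 in iNKT2, a difference of 2.23 ± 0.43 (SE, n = 2 and 2, limma adjusted p = 0.000762), and the region past the gene's end at chr2:9848234-9848733 read 4.02 and 3.94 in iNKT1 and 2.24 and 2.16 in iNKT2, a difference of 1.78 ± 0.20 (SE, n = 2 and 2, limma adjusted p = 1.11e-05). None of the 6 promoter regions was called. The most open of them, 11.4 kb inside the gene at chr2:9878387-9878886, read 6.27 and 6.16 in iNKT1 and 6.62 and 6.47 in iNKT2, a difference of -0.33 ± 0.08 (SE, n = 2 and 2, limma adjusted p = 0.00459). The other 5 had differences from -0.17 to 0.35, each with a limma adjusted p of 0.176 or more. Both called regions fell short of the call with a pseudocount of 5. Farther out, called regions whose nearest protein-coding start was that of Gata3 lay in both directions, 3 higher in iNKT1 and 3 higher in iNKT2. GATA3 is needed for iNKT cell development, and accessibility of a locus is not a level of its protein.

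Among cytokine genes, most tested regions of Ifng were higher in iNKT1, while calls at Il4 were too few to set its locus apart. At Il4, 2 of 14 tested regions were higher in iNKT2, beside 8.71% of all tested regions, and 0 in iNKT1, and at an unadjusted p under 0.05 in limma 8 were higher in iNKT2 and 3 in iNKT1, beside 27.5% and 26.9% of all tested regions. An intronic region of these 2, at chr11:53605616-53606115, read 4.69 and 5.00 in iNKT1 and 6.47 and 6.48 in iNKT2, a difference of -1.63 ± 0.14 (SE, n = 2 and 2, limma adjusted p = 9.65e-07) that fell under 3-fold without iNKT1 replicate 1 (-1.48). Both Il4 regions fell short of the call with a pseudocount of 5. At Ifng, 4 of 5 tested regions were higher in iNKT1, beside 7.33% of all tested regions, and 0 in iNKT2. At an unadjusted p under 0.05 in limma all 5 were higher in iNKT1. The region upstream at chr10:118435448-118435947 read 4.50 and 4.50 in iNKT1 and -0.10 and -0.41 in iNKT2, a difference of 4.75 ± 0.84 (SE, n = 2 and 2, limma adjusted p = 0.00037). The Ifng promoter at chr10:118440640-118441139 read 6.48 and 6.40 in iNKT1 and 4.93 and 4.69 in iNKT2, a difference of 1.63 ± 0.24 (SE, n = 2 and 2, limma adjusted p = 9.29e-05) that fell under 3-fold without iNKT2 replicate 2 (1.51). Of the 4 Ifng regions, 3 fell short of the call with a pseudocount of 5, the promoter among them. Called regions with Ifng as nearest start but outside its locus lay both ways, 6 higher in iNKT1 and 4 higher in iNKT2.

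**Figure D2:**
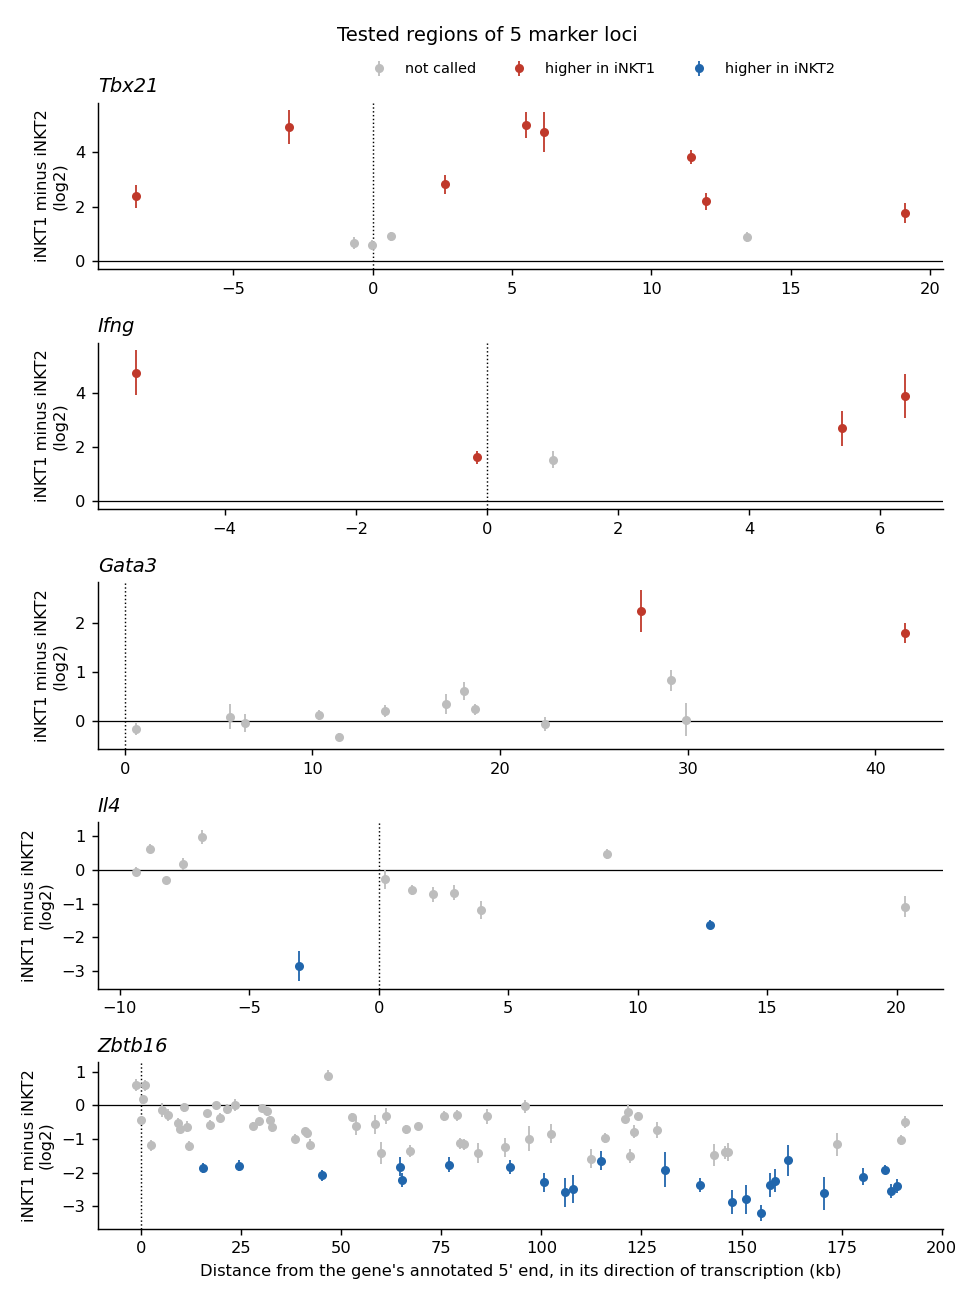
Fitted log2 difference (iNKT1 minus iNKT2, points with SE) of each tested region of the Tbx21, Ifng, Gata3, Il4 and Zbtb16 loci against its distance in kb from the annotated 5' end of the gene. Called regions are red (8 at Tbx21, 4 at Ifng and 2 at Gata3) or blue (2 at Il4 and 24 at Zbtb16).

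Of the 23 gene lists, those of natural killer (NK) receptors, iNKT1 markers and cytotoxic effectors had the largest shares of regions higher in iNKT1, beside 7.33% of all tested regions. NK receptor genes had 50 of 77 tested regions (64.9%) higher in iNKT1 and 1 (1.30%) higher in iNKT2, with a median difference of 2.33. All 10 tested regions of Klrd1 (encoding CD94), all 5 of Klrk1 (NKG2D) and 7 of 9 at Klrb1c (NK1.1) were higher in iNKT1. A promoter region of the Klrd1 locus at chr6:129594895-129595394 read 3.71 and 3.89 in iNKT1 and -3.79 and -3.79 in iNKT2, with iNKT2 libraries near their lowest value. The promoter of Klrc2, an activating partner of CD94, read 5.14 and 5.07 in iNKT1 and 0.27 and 0.21 in iNKT2, a difference of 4.86 ± 0.27 (SE, n = 2 and 2, limma adjusted p = 4.27e-08). The loci of neighbouring genes such as Klrd1 and Klre1 overlap, and a region was counted once per list. The lists also share genes, so the same region can count in several lists. Klrd1 is an NK receptor and an iNKT1 marker gene, and Nkg7 a cytotoxic effector and an iNKT1 marker gene.

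Cytotoxic effector genes had 35 of 78 tested regions (44.9%) higher in iNKT1 and 0 higher in iNKT2 (52 and 3 at an unadjusted p under 0.05 in limma), with a median difference of 1.23. All tested regions of Gzmb (5), Prf1 (3), Ccl3 (5), Ccl4 (2) and Xcl1 (5) were higher in iNKT1. The promoter of Prf1, which encodes perforin, read 5.95 and 5.73 in iNKT1 and 2.20 and 2.28 in iNKT2, a difference of 3.60 ± 0.21 (SE, n = 2 and 2, limma adjusted p = 6.51e-08). The promoter of the granzyme gene Gzmb read 6.61 and 6.57 in iNKT1 and 2.92 and 2.19 in iNKT2, a difference of 4.03 ± 0.28 (SE, n = 2 and 2, limma adjusted p = 2.03e-07), and that of Nkg7, a protein of cytotoxic granules, read 7.32 and 7.19 in iNKT1 and 3.89 and 3.61 in iNKT2, a difference of 3.51 ± 0.25 (SE, n = 2 and 2, limma adjusted p = 2.58e-07). Gzmk, Ctsw, Serpinb9 and Lamp1 had 0 called regions, while at an unadjusted p under 0.05 in limma 1, 1, 3 and 0 of their regions were higher in iNKT1 and 0, 1, 0 and 0 in iNKT2.

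The list of iNKT1 markers had 68 of 120 tested regions (56.7%) higher in iNKT1 and 1 (0.833%) higher in iNKT2, with a median difference of 1.98. The list of iNKT2 markers had 4 of 231 tested regions (1.73%) higher in iNKT1 and 47 (20.3%) higher in iNKT2, with a median difference of -0.72. Of those 47 regions, 24 were those of Zbtb16, and Il6ra (9 of 21 regions) and Icos (4 of 16) followed. Il17rb (2 of 8), Ccr7 (2 of 11), Il4 (2 of 14) and Lef1 (2 of 20) were tied next by count. At Il6ra, a subunit of the IL-6 receptor, the intronic region at chr3:89896584-89897083 read 0.92 and 0.91 in iNKT1 and 4.01 and 4.34 in iNKT2, a difference of -3.26 ± 0.23 (SE, n = 2 and 2, limma adjusted p = 2.57e-07). The sorting markers were used to choose the cells, so their loci are given as a description. The promoter of Il2rb (CD122) read 8.04 and 8.08 in iNKT1 and 7.62 and 7.62 in iNKT2, that of Icos 5.55 and 5.58 in iNKT1 and 5.65 and 5.35 in iNKT2, and that of Izumo1r 5.51 and 5.51 in iNKT1 and 6.33 and 6.39 in iNKT2, each open in both subsets. Il2rb had 0 called regions of 11 (at an unadjusted p under 0.05 in limma 7 were higher in iNKT1 and 2 in iNKT2), and Izumo1r had 2 of 9, both higher in iNKT1. Over all tested regions, the shares were 7.33% and 8.71%, with a median of 0.01.

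**Figure D3:**
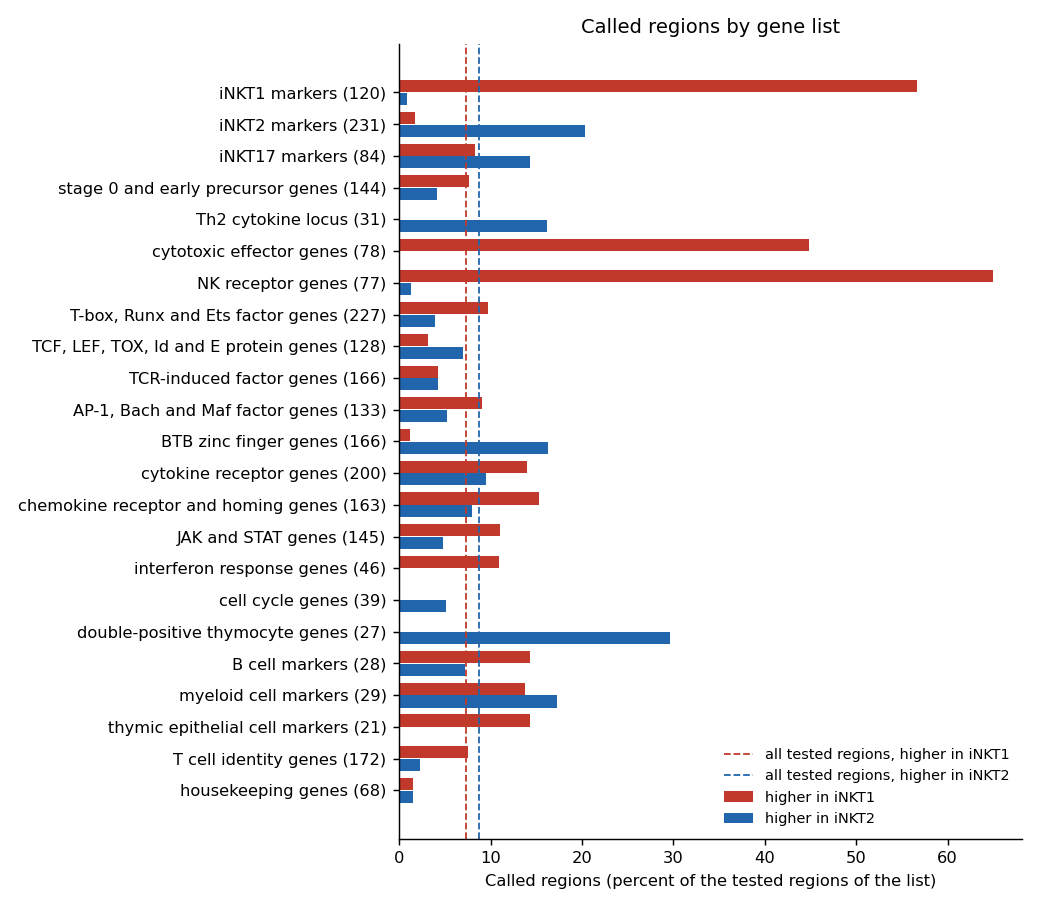
Percent of the tested regions of each of 23 gene lists (number of regions in brackets) called higher in iNKT1 (red) or iNKT2 (blue), with dashed lines at 7.33% and 8.71% for all tested regions. NK receptor, iNKT1 marker and cytotoxic effector genes stand highest on the iNKT1 side.

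Genes of cytokine signalling were read beside the 7.33% and 8.71% of all tested regions. Cytokine receptor genes had 28 of 200 tested regions (14.0%) higher in iNKT1 and 19 (9.50%) higher in iNKT2, with a median difference of 0.27. Ifngr1, a chain of the interferon gamma receptor, had 9 of 14 regions higher in iNKT1, and Il12rb2, a chain of the IL-12 receptor, had 7 of 13 higher in iNKT1 and 1 higher in iNKT2. Ifngr2, the partner chain of Ifngr1, had 3 of 8 regions higher in iNKT2, as did Il6ra with 9 of 21. The promoter of Il12rb2 read 6.40 and 6.44 in iNKT1 and 4.25 and 4.54 in iNKT2, a difference of 2.03 ± 0.17 (SE, n = 2 and 2, limma adjusted p = 7.48e-07). JAK and STAT genes had 16 of 145 tested regions (11.0%) higher in iNKT1 and 7 (4.83%) higher in iNKT2, with a median difference of 0.11. With loci widened to 50 kb the shares of this list were 6.83% and 3.61%, both under those of all tested regions. Stat4, which signals from the IL-12 receptor, had 8 of 14 regions and Jak1 5 of 34 higher in iNKT1, while Stat5a had 3 of 9, Jak2 2 of 5 and Stat3 2 of 9 higher in iNKT2. At Jak2 the intronic region at chr19:29261552-29262051 read 2.08 and 1.39 in iNKT1 and 4.95 and 5.02 in iNKT2, a difference of -3.25 ± 0.24 (SE, n = 2 and 2, limma adjusted p = 3.46e-07).

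Chemokine receptor and homing genes had 25 of 163 tested regions (15.3%) higher in iNKT1 and 13 (7.98%) higher in iNKT2, with a median difference of 0.08, beside 7.33% and 8.71% of all tested regions. Itga1, an integrin that binds collagen, had 8 of 12 regions higher in iNKT1 and 1 higher in iNKT2, and Cxcr3 had 4 of 6 higher in iNKT1, while Ccr4 had 5 of 11 and Ccr7 2 of 11 higher in iNKT2. The region beside Ccr4 at chr9:114480173-114480672 read 0.36 and 0.36 in iNKT1 and 3.68 and 3.77 in iNKT2, a difference of -3.36 ± 0.30 (SE, n = 2 and 2, limma adjusted p = 1.47e-06). The Th2 cytokine locus had 0 of 31 tested regions higher in iNKT1 and 5 (16.1%) higher in iNKT2 (7 and 17 at an unadjusted p under 0.05 in limma), with a median difference of -0.57. The promoter region of Il5 read -0.11 and 0.82 in iNKT1 and 3.03 and 3.44 in iNKT2, a difference of -2.87 ± 0.27 (SE, n = 2 and 2, limma adjusted p = 1.95e-06), and in iNKT17 libraries its mean level was 6.33. The other 2 tested Il5 regions went the other way, higher in iNKT1 at an unadjusted p under 0.05 in limma and short of the call. The Ccr4 and Il5 regions fell short of the call with a pseudocount of 5.

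Lists of transcription factor families were also read beside the 7.33% and 8.71% of all tested regions. T-box, Runx and Ets factor genes had 22 of 227 tested regions (9.69%) higher in iNKT1 and 9 (3.96%) higher in iNKT2, with a median difference of 0.25. Of the 22 regions, 8 were those of Tbx21 (8 of 12), and others lay at Ets1 (4 of 36), Runx3 (3 of 20) and Fli1 (3 of 25). Etv6 (6 of 13) stood on the iNKT2 side. At Runx3 the intronic region at chr4:135169028-135169527 read 5.31 and 5.29 in iNKT1 and 1.66 and 1.60 in iNKT2, a difference of 3.67 ± 0.16 (SE, n = 2 and 2, limma adjusted p = 1.01e-08). Genes of TCF, LEF, TOX, Id and E proteins had 4 of 128 tested regions (3.12%) higher in iNKT1 and 9 (7.03%) higher in iNKT2, with a median difference of -0.04. AP-1, Bach and Maf factor genes had 12 of 133 tested regions (9.02%) higher in iNKT1 and 7 (5.26%) higher in iNKT2, with a median difference of 0.19. With loci widened to 50 kb the order turned, with 15 and 17 of 243 regions. Bach2 had 4 of its 37 regions higher in iNKT1 and 7 higher in iNKT2. Genes induced by the T cell receptor had 7 of 166 tested regions (4.22%) higher in iNKT1 and 7 (4.22%) higher in iNKT2, with a median difference of 0.10. Irf4 had 5 of 14 regions higher in iNKT2 and 1 higher in iNKT1. BTB zinc finger genes had 2 of 166 tested regions (1.20%) higher in iNKT1 and 27 (16.3%) higher in iNKT2, with a median difference of -0.45. Of the 27 regions, 24 were at Zbtb16.

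Shares of the remaining lists of T cell and general genes were read beside the 7.33% and 8.71% of all tested regions. Genes of stage 0 and early precursors had 11 of 144 tested regions (7.64%) higher in iNKT1 and 6 (4.17%) higher in iNKT2 (37 and 50 at an unadjusted p under 0.05 in limma), with a median difference of -0.01. With loci widened to 50 kb the shares of this list were 5.83% and 8.75%, and their order turned. Cd69 had 3 of 8 and Hivep3 3 of 20 regions higher in iNKT1, and Cd81 had 2 of 3 higher in iNKT2. The median difference over the Hivep3 regions was -0.39, and at an unadjusted p under 0.05 in limma 4 of them were higher in iNKT1 and 8 in iNKT2. T cell identity genes had 13 of 172 tested regions (7.56%) higher in iNKT1 and 4 (2.33%) higher in iNKT2, with a median difference of 0.12. Cd2 had 6 of 16 regions higher in iNKT1 while Cd247 had 2 of 22 higher in iNKT2. Interferon response genes had 5 of 46 tested regions (10.9%) higher in iNKT1 and 0 higher in iNKT2 (12 and 7 at an unadjusted p under 0.05 in limma), with a median difference of 0.04. Cell cycle genes had 0 of 39 tested regions higher in iNKT1 and 2 (5.13%) higher in iNKT2 (3 and 8 at an unadjusted p under 0.05 in limma), with a median difference of -0.09. Housekeeping genes had 1 of 68 tested regions (1.47%) higher in iNKT1 and 1 (1.47%) higher in iNKT2, with a median difference of 0.07.

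Markers of cells that the sorts could hold were counted the same way, with the summed linear level over the regions of each list, and were read beside the 7.33% and 8.71% of all tested regions. Genes of double-positive thymocytes had 0 of 27 tested regions higher in iNKT1 and 8 (29.6%) higher in iNKT2 (2 and 20 at an unadjusted p under 0.05 in limma), with a median difference of -0.86. Their summed level was 600.4 and 608 in the iNKT1 libraries and 912 and 908 in the iNKT2 libraries. Arpp21 held 4 of the 8 regions, Ptcra was the most accessible gene, and Rag1, Cd8a and Cd8b1 had 0 tested regions. Genes of iNKT17 cells had 7 of 84 tested regions (8.33%) higher in iNKT1 and 12 (14.3%) higher in iNKT2, with a median difference of -0.10. Their summed level was 1663 and 1601 in the iNKT1 libraries and 1853 and 1806 in the iNKT2 libraries, and Rora was the most accessible gene. B cell markers had 4 of 28 tested regions (14.3%) higher in iNKT1 and 2 (7.14%) higher in iNKT2 (6 and 9 at an unadjusted p under 0.05 in limma), with a median difference of -0.09, and with loci widened to 50 kb both shares were 9.09%. Their summed level was 675 and 686 in the iNKT1 libraries and 764 and 759 in the iNKT2 libraries. Cd79a was the most accessible gene, and Ms4a1 and Blnk had 0 tested regions. Ebf1 held 3 of the 4 regions higher in iNKT1. Myeloid markers had 4 of 29 tested regions (13.8%) higher in iNKT1 and 5 (17.2%) higher in iNKT2 (11 and 8 at an unadjusted p under 0.05 in limma), with a median difference of -0.07. Their summed level was 651 and 693 in the iNKT1 libraries and 607 and 635 in the iNKT2 libraries. Cebpb was the most accessible gene, and Csf1r and Adgre1 had 0 tested regions. Thymic epithelial markers had 3 of 21 tested regions (14.3%) higher in iNKT1 and 0 higher in iNKT2 (9 and 3 at an unadjusted p under 0.05 in limma), with a median difference of 0.52. All 3 lay at Cdh1, their most accessible gene. The summed level was 570.5 and 550.3 in the iNKT1 libraries and 401 and 402 in the iNKT2 libraries, and Krt5 had 0 tested regions. Calls at Cd22 (1.56 without iNKT2 replicate 1), at Lyz2 (-1.49 without iNKT1 replicate 2) and at the cell cycle gene Aurkb (-1.25 without iNKT1 replicate 1, -1.48 without iNKT2 replicate 1) were lost without 1 library. Some of these genes are also used by T or NK cells, and the part of other cells in the differences was not tested.

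Regions were next given to the nearest protein-coding start within 100 kb, and the 8 genes with most called regions in each direction were taken. On the iNKT1 side these were Prex1 (15 of 60), Xcl1 (13 of 21), Coro2a (12 of 28), Ifngr1 (12 of 19), Pik3ap1 (11 of 15), Gas7 (10 of 10), Il12rb2 (10 of 15) and Sulf2 (10 of 14). Of all tested regions, 7.33% were higher in iNKT1, and Xcl1 also had 1 region higher in iNKT2. Xcl1 encodes a chemokine of NK and T cells, Pik3ap1 an adaptor of PI3 kinase and Prex1 an exchange factor for Rac. The Prex1 region at chr2:166606829-166607328 read 5.12 and 5.14 in iNKT1 and 1.38 and 1.57 in iNKT2, a difference of 3.65 ± 0.25 (SE, n = 2 and 2, limma adjusted p = 1.61e-07). Of the called regions, 13 of 15 at Prex1, 13 of 13 at Xcl1, 12 of 12 at Coro2a, 11 of 12 at Ifngr1, 11 of 11 at Pik3ap1, 10 of 10 at Gas7, 8 of 10 at Il12rb2 and 10 of 10 at Sulf2 were called in the same direction in Hivep3-/- cells, beside 78.7% of all regions higher in iNKT1. All 10 tested regions of Gas7 were called, and the one at chr11:67532102-67532601 read 4.09 and 3.92 in iNKT1 and -4.05 and -4.31 in iNKT2, where an iNKT2 library was at its lowest value, so no fold is given.

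On the iNKT2 side the genes were Nnmt (14 of 22), Tgm3 (13 of 13), Akap6 (12 of 19), Mtss1 (12 of 14), Chdh (12 of 20), Tgfbr3 (11 of 30), Tiam1 (11 of 31) and Mpp4 (10 of 10). Of all tested regions, 8.71% were higher in iNKT2, and Tiam1 also had 1 region higher in iNKT1. Of the 14 regions nearest to Nnmt, 9 lay inside Zbtb16, its neighbour, and nearness to a start does not tell which gene a region acts on. Chdh likewise lies beside Il17rb, an iNKT2 marker. Of the called regions, 13 of 13 at Tgm3, 12 of 12 at Chdh, 12 of 14 at Nnmt, 11 of 12 at Mtss1, 10 of 11 at Tgfbr3, 5 of 10 at Mpp4, 3 of 12 at Akap6 and 3 of 11 at Tiam1 were called in the same direction in Hivep3-/- cells. Over all regions higher in iNKT2 this share was 62.0%. A missing call there is not a test of the difference between genotypes. The Mtss1 region at chr15:59056426-59056925 read 0.36 and -0.41 in iNKT1 and 3.68 and 3.55 in iNKT2, a difference of -3.64 ± 0.33 (SE, n = 2 and 2, limma adjusted p = 1.52e-06), and the Chdh region at chr14:30092445-30092944 read -0.94 and 0.06 in iNKT1 and 3.00 and 3.13 in iNKT2, a difference of -3.51 ± 0.39 (SE, n = 2 and 2, limma adjusted p = 8.03e-06). The Tgfbr3 region at chr5:107150550-107151049 read -0.94 and -1.01 in iNKT1 and 2.99 and 3.06 in iNKT2, a difference of -4.00 ± 0.56 (SE, n = 2 and 2, limma adjusted p = 5.55e-05). These 3 regions fell short of the call with a pseudocount of 5.

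**Figure D4:**
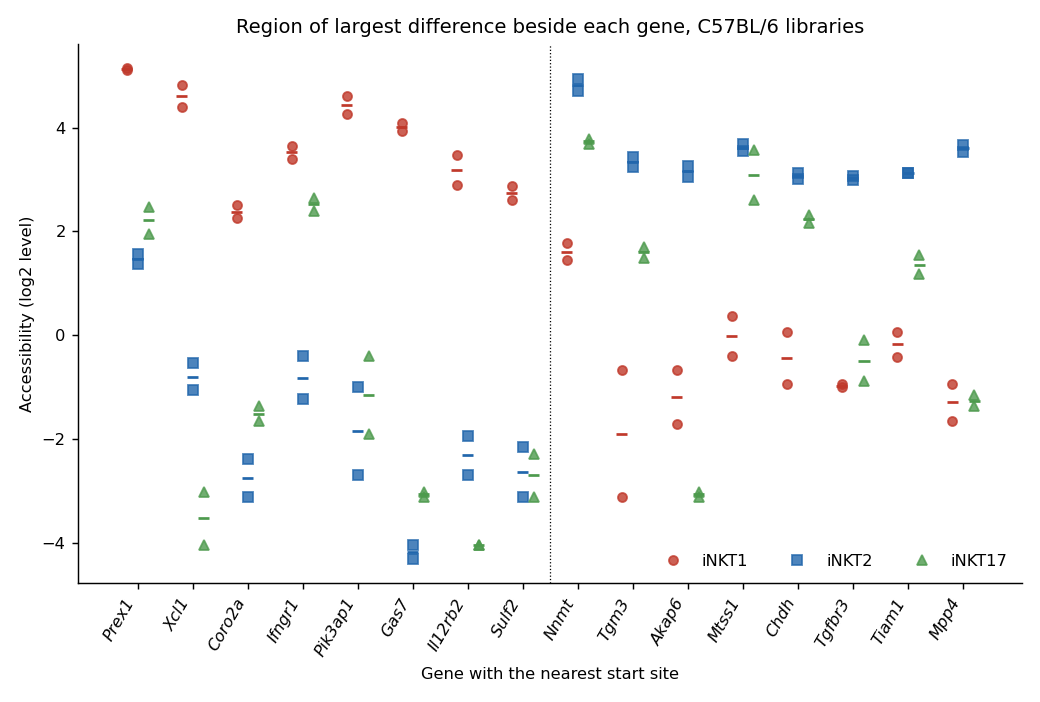
Log2 level in each C57BL/6 library (points, with the mean of 2 libraries as a line) at the region of largest difference beside each of the 16 genes with most called regions, 8 per direction. At each gene both libraries of the higher subset lie above both of the other, as the choice by largest difference nearly ensures. The iNKT17 libraries are shown beside them.

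The regions with the largest differences, among those with no library at its lowest value, included regions near the NK and effector genes Klrd1, Ccl9 and Gzma on the iNKT1 side. The nearest starts there were those of Flrt2, Klrd1, Ccl9, Gzma and Eya2. The Gzma region at chr13:113090420-113090919 read 4.03 and 4.27 in iNKT1 and -4.05 and -2.39 in iNKT2, and the region beside Ccl9 at chr11:83560381-83560880 read 4.29 and 3.86 in iNKT1 and -3.12 and -3.79 in iNKT2. The region nearest to Flrt2, at chr12:94083396-94083895, read 4.15 and 4.31 in iNKT1 and -3.79 and -3.79 in iNKT2, and the Eya2 intronic region at chr2:165684572-165685071 read 3.26 and 3.47 in iNKT1 and -4.05 and -3.79 in iNKT2. At these regions the iNKT2 libraries read from -4.05 to -2.39, where the lowest value of both was -4.31. Levels this low are poorly resolved, so no fold is given. On the iNKT2 side the nearest starts were Spaca6, Slc12a2, Xylt1, Phlda1 and Vapb. The Spaca6 region at chr17:17791718-17792217 read -0.94 and -2.39 in iNKT1 and 3.42 and 3.41 in iNKT2, the Xylt1 region at chr7:117099000-117099499 read -1.72 and 0.82 in iNKT1 and 4.64 and 4.55 in iNKT2, and the Vapb region at chr2:173845971-173846470 read -0.94 and -1.65 in iNKT1 and 3.74 and 3.69 in iNKT2. At these 3 regions the iNKT1 replicates lay farther apart than the iNKT2 replicates, and the Spaca6 region fell short of the call with a pseudocount of 5.

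Genes named in single-cell clusters of iNKT cells from other samples were looked up by name alone, for 3 of the iNKT1 clusters and 1 iNKT2 cluster, and the other iNKT1 clusters, a transitional one and one with interferon signalling genes, were not used here. Of 103 genes of these iNKT1 clusters with a tested region, 77 (74.8%) had a region higher in iNKT1 and 7 (6.80%) had a region higher in iNKT2. Of 20 genes of the iNKT2 cluster, 8 (40.0%) had a region higher in iNKT2 and 3 (15.0%) had a region higher in iNKT1. Among all 15133 protein-coding genes with a tested region, 2058 (13.6%) had a region higher in iNKT1 and 2778 (18.4%) had a region higher in iNKT2. The cluster genes had more tested regions each, a median of 7 and 10 beside 3 over all genes, and so more chances of a call.

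Short motifs were counted on both strands of the whole 500 bp regions, as a description of their letters. The T-box letters AGGTGTGA stood in 8.68% of regions higher in iNKT1, 2.34% of those higher in iNKT2 and 2.97% of all tested regions. The Runt letters AACCACA stood in 28.4% of regions higher in iNKT1, 20.7% of those higher in iNKT2 and 17.0% of all tested regions, and the ETS letters CAGGAAGT in 13.6% of regions higher in iNKT1, 9.01% of those higher in iNKT2 and 9.97% of all tested regions. These 3 were more frequent on the iNKT1 side. The TCF letters TCAAAGG stood in 8.94% of regions higher in iNKT1, 17.2% of those higher in iNKT2 and 9.39% of all tested regions, and were more frequent on the iNKT2 side. The GATA letters AGATAAG stood in 7.18% of regions higher in iNKT1, 9.05% of those higher in iNKT2 and 6.09% of all tested regions, the NFAT letters TGGAAAA in 9.97% of regions higher in iNKT1, 12.0% of those higher in iNKT2 and 10.0% of all tested regions and the bZIP letters TGAGTCA in 14.6% of regions higher in iNKT1, 15.8% of those higher in iNKT2 and 11.2% of all tested regions. For the E-box letters CAGCTG the shares were nearly equal, with 27.2% of regions higher in iNKT1, 28.0% of those higher in iNKT2 and 27.1% of all tested regions. The Egr letters GCGTGGGCG stood in 0.0468% of regions higher in iNKT1, 0.472% of those higher in iNKT2 and 0.684% of all tested regions, the NF-kB letters GGGANTTTC in 1.94% of regions higher in iNKT1, 2.97% of those higher in iNKT2 and 2.20% of all tested regions, the ROR letters TAGGTCA in 5.50% of regions higher in iNKT1, 5.04% of those higher in iNKT2 and 4.35% of all tested regions and the CTCF letters AGGGGGCGC in 0.304% of regions higher in iNKT1, 0.531% of those higher in iNKT2 and 1.91% of all tested regions. In the central 200 bp the T-box shares were 6.86% and 0.807% and the TCF shares 3.35% and 10.4%, for iNKT1 and iNKT2. Away from promoters, an alternative chosen after seeing the data, the order of called and tested regions turned for the Egr letters on the iNKT2 side (0.385% beside 0.266% of tested regions), for the GATA letters on the iNKT1 side (7.11% beside 7.46%) and for the E-box letters on both sides (26.7% and 27.4% beside 28.0%).

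**Figure D5:**
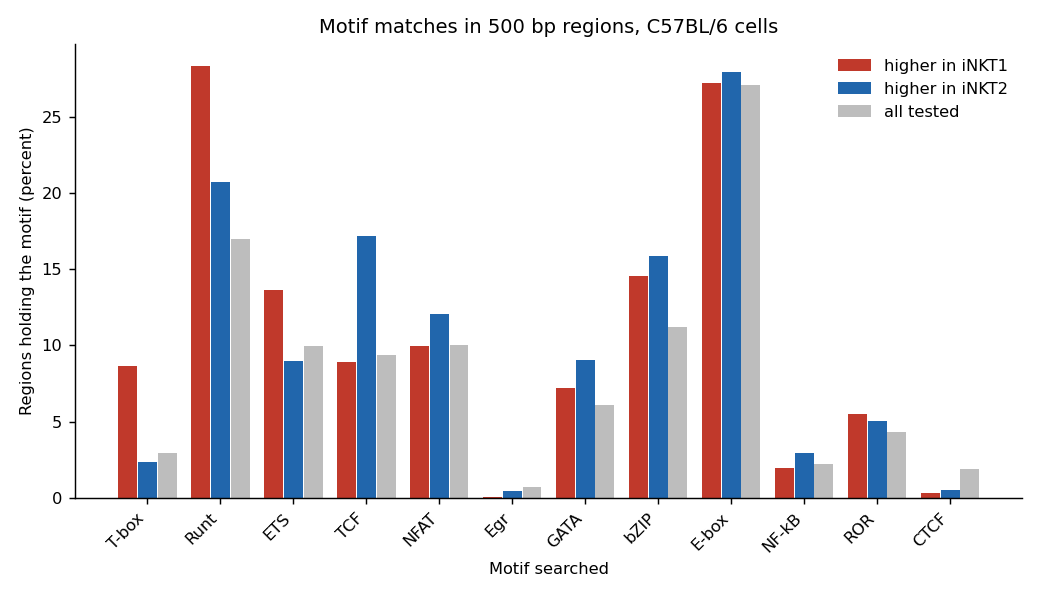
Percent of 500 bp regions that hold each of 12 motifs among regions higher in iNKT1 (red), higher in iNKT2 (blue) and all tested regions (grey). The T-box and Runt letters are most frequent in the red bars and the TCF letters in the blue bars.

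The same contrast was available in Hivep3-/- cells, in 4 other libraries. All 12 libraries shared 1 fit and its estimate of the spread, so the calls of the genotypes are not independent. In Hivep3-/- cells, of 58649 tested regions, 5145 (8.77%) were higher in iNKT1 and 5011 (8.54%) higher in iNKT2. Of the 4273 C57BL/6 regions higher in iNKT1, 3364 were called in the same direction, 78.7% of the C57BL/6 list and 65.4% of the Hivep3-/- list. Of the 5082 higher in iNKT2, 3152 were, 62.0% and 62.9% of the lists. The opposite call was made for 0 and 17 regions, and 0 and 60 went the other way at an unadjusted p under 0.05 in limma. Together 6516 regions were called alike. The difference between the subsets itself differed between the genotypes, in limma's interaction contrast at the same thresholds, in 1836 of 59926 regions (3.06%). These included 561 of the 5082 iNKT2 regions with a smaller difference in Hivep3-/- cells and 117 with a larger one, and among the 4273 iNKT1 regions 61 with a smaller and 160 with a larger one. The called regions were chosen for a large C57BL/6 difference, which this contrast subtracts. That choice alone favours a smaller difference in Hivep3-/- cells, so these counts do not by themselves measure an effect of genotype. With a pseudocount of 5, 1643 regions were called alike and 184 differed between the genotypes, and with a pseudocount of 1 the latter were 1214.

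iNKT17 cells of the same genotype were read beside them, as levels without a test. A mean of at least 5 in iNKT17 was found at 1449 of the 4273 regions higher in iNKT1 (33.9%) and at 2897 of the 5082 higher in iNKT2 (57.01%), beside 83.3% of all tested regions. The median log2 level of iNKT17 was 1.51 at the regions higher in iNKT1, close to that of iNKT2 (1.33), and 2.67 at the regions higher in iNKT2, between iNKT1 (1.41) and iNKT2 (3.81).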

How the data were processed

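Accessibility was measured by ATAC-seq. Per the study's methods, reads were trimmed with Trimmomatic (0.39 in the submitters' processing notes) and mapped to mm10, peaks of all replicates were merged into regions of 500 bp, and insertions were counted and normalized with voom. As deposited by the authors, values are log2 levels of normalized insertions per kilobase, nearly equal in their linear sum, so depth is unknown. All 12 columns were mapped to libraries.

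Group means of the 12 libraries were fitted with limma 3.58.1 in R 4.3.3 (variance trend, empirical Bayes), with p-values adjusted over all tested regions. A permutation of 2 against 2 libraries cannot go below 0.333. The fit was tested on simulated data. Python 3.11.15, numpy 2.4.6, pandas 2.3.3 and matplotlib 3.10.9 were used, with genes from GENCODE vM21 and sequence from RefSeq's GRCm38.p6. Coordinates are 1-based. Genes were named by rule: the markers, the 8 genes per direction with most called regions, the 5 largest differences per direction with no library at its lowest value, and up to 4 genes per list. For Il4, 1 called region and its sequence are not reported here. Other genes and promoters were chosen after their values were seen. Members and lists were chosen with earlier results of these data known. Sample titles number the mice, and replicate deviations of iNKT1 and iNKT2 libraries correlated with 0.275 across tested regions. Alternatives covered the filter, pseudocount, normalization, libraries fitted, replicate block, thresholds, locus and motif windows, and left-out replicates.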

Additional observations from a re-analysis of the deposited data

Results flagged for a closer look

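Of 144 named regions, 15 had a difference between iNKT1 and iNKT2 that itself differed between Hivep3-/- and C57BL/6 cells, in limma's interaction contrast at an adjusted p under 0.1 and 3-fold, beside 9.61% of all called regions and 3.06% of all regions tested in that contrast. Called regions were chosen for their C57BL/6 difference, which this contrast subtracts, so that choice alone can raise their share. Values in brackets are the Hivep3-/- difference less the C57BL/6 difference (log2, iNKT1 minus iNKT2). A larger excess of iNKT1 in Hivep3-/- cells was found at Tbx21 in chr11:97103676-97104175 (1.63) and chr11:97112484-97112983 (1.89), at the Ifng promoter chr10:118440640-118441139 (2.01), at the Nkg7 promoter chr7:43436792-43437291 (2.29), at Klrb1c in chr6:128790419-128790918 (3.34) and at Itgam in chr7:128119714-128120213 (3.00). A larger excess of iNKT2 was found at Zbtb16 in chr9:48696236-48696735 (-1.89), chr9:48735323-48735822 (-1.79), chr9:48677625-48678124 (-2.15), chr9:48770701-48771200 (-1.59) and chr9:48743769-48744268 (-1.76). At these 11 regions the subset that was higher was the same in both genotypes. Over all regions of this contrast, calls fell from 1836 to 1214 with a pseudocount of 1 and to 184 with a pseudocount of 5. Which of the 15 regions keep their call with a pseudocount is not given here. The Tbx21 regions had linear iNKT2 means of 4.92 and 14.5 in C57BL/6 mice and 1.43 and 5.58 in Hivep3-/- mice.

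The excess of iNKT2 was smaller in Hivep3-/- cells, and short of the call there, at Ikzf2 in chr1:69544160-69544659 (2.72) and Tcf4 in chr18:69547833-69548332 (2.01). At Tox2 in chr2:163298916-163299415 (4.38) the direction turned. The Tox2 region read 1.82 and 2.30 in iNKT1 and 4.44 and 4.79 in iNKT2 in C57BL/6 mice, against 4.28 and 4.41 in iNKT1 and 2.34 and 2.70 in iNKT2 in Hivep3-/- mice, a difference of 1.82. The Akap6 exon at chr12:52887280-52887779 (4.80) read -1.72 and -0.67 in iNKT1 and 3.27 and 3.04 in iNKT2 in C57BL/6 mice, against -4.05 and -2.89 in iNKT1 and -3.79 and -4.05 in iNKT2 in Hivep3-/- mice, where both subsets were too low to be tested. As 3 of these 4 libraries were at their lowest value, its value rests on that bound and gives no size. The causes were not tested.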

How the results depend on the processing

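Counts of 4273 and 5082 regions moved with the treatment of low levels and with the fold threshold. With a pseudocount of 5 they were 1183 and 1287, calls shared with Hivep3-/- cells 1643 and differences between genotypes 184, and with a pseudocount of 1 the last count was 1214. Pseudocounts shrink differences at low levels by construction. At 2-fold the counts were 7540, 8387, 11796 and 4001, and promoters were 15.1% of calls, against 12.3% at 3-fold and 23.7% when taken within 2500 bp. Without a filter the counts were 4920 and 5608. With the replicate block, which pairs libraries by mouse number, they were 4282 and 5088, holding all 4273 and 5082 regions, and differences between genotypes were 2140. The block gave 6530 calls shared with Hivep3-/- cells and changed the call of 0 of the 144 named regions. Leaving out a C57BL/6 replicate gave 4142 to 4415 and 4813 to 5246 regions with promoters at 12.2% to 13.0%, and leaving out a replicate of either genotype gave 6368 to 6535 shared calls and 1269 to 1942 differences between genotypes. The lone library left is then assumed to vary like the other groups. No called region changed direction under any C57BL/6 alternative. Of 138 named regions that were called, 74 lost the call with a pseudocount of 5, 6 with a pseudocount of 1 and 9 without some replicate, 2 of these also after renewed quantile normalization. Motif shares away from promoters, an alternative chosen after seeing the data, kept the T-box share higher in iNKT1 (8.75% and 2.26%) and the TCF share higher in iNKT2 (9.20% and 17.8%). With loci of gene lists widened from 10 to 50 kb, shares of the JAK and STAT, AP-1, stage 0 and B cell lists moved across each other or across those of all tested regions. Giving regions to list genes by nearest start moved other lists across the shares of all tested regions. Among them, the share higher in iNKT1 was 4.88% for myeloid and 4.62% for iNKT17 markers, under 7.33%. The share higher in iNKT2 was 9.09% for thymic epithelial markers and for cell cycle genes, above 8.71%. Low levels limit what these libraries resolve.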

Other observations

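On chromosome X, 117 of 1077 tested regions were called (10.9%), beside 16.0% over all tested regions. The median GC content was 46.6% for regions higher in iNKT1, 47.6% for those higher in iNKT2 and 50.4% over all tested regions. Il23r, a receptor gene used as an iNKT17 marker, had 3 of its 14 regions tested. All 3 were higher in iNKT1, beside 7.33% of all tested regions. The gene lies beside Il12rb2, and the region at chr6:67431683-67432182 read 3.61 and 3.26 in iNKT1 and -0.61 and -1.72 in iNKT2. That region is also among the 10 called regions given to Il12rb2 by nearest start. Itgax, used as a myeloid marker, also had all 3 tested regions higher in iNKT1, beside the same 7.33%. Its summed linear level was 63.2 in iNKT1 and 6.00 in iNKT2. The Itgax region at chr7:128137425-128137924 read 3.35 and 3.26 in iNKT1 and -3.02 and -3.12 in iNKT2. The Il23r and Itgax regions fell short of the call with a pseudocount of 5.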
